A study of Mus musculus with 22 samples.

Results

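The genes described here are the writers and erasers of DNA methylation, and they are 9 of the 24421 genes counted in the 22 libraries of the series. They were chosen by name and not by a filter on their values, though with earlier results of these data known. The writers are Dnmt1, Dnmt3a and Dnmt3b, which put a methyl group on cytosine, with Uhrf1 and its relative Uhrf2, which bind hemimethylated DNA. The erasers are Tet1, Tet2 and Tet3, which oxidize methylcytosine, and Tdg, the glycosylase that cuts out the oxidized base. RNA was sequenced from cells that were flow sorted from the colon epithelium of untreated wild-type male mice of strain C57BL/6N, aged 5 to 7 weeks. Every group came from this same kind of mouse, and the groups are defined by their sort gates. All gates took live cells that carry Epcam and lack Cd31 and Cd45. Stem cells (Stem, 3 libraries) had the highest Cd44 with low Cd24 and no Ckit, and absorptive progenitors (AbsPro, 3 libraries) had medium to high Cd44 with low Cd24 and no Ckit. The SecPDG gate (4 libraries) mixes secretory progenitors, deep crypt secretory cells and goblet cells. Its sample labels give high Cd44 with medium Cd24 and medium Ckit. The study's text gives this gate medium Cd44 instead, and reports Ckit protein as detectable in tuft cells alone. Tuft cells (5 libraries) had high Cd24 with Ckit, enterocytes (5 libraries) had low or no Cd44 and no Cd24, and enteroendocrine cells (EEC, 2 libraries) had low or no Cd44 with Cd24. By the study's methods the libraries of a cell type are biological replicates from separate mice and sorts. Each Stem or AbsPro library came from a single mouse and each library of the other gates from pooled mice, so that the pooled groups hide the spread between mice.

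Methylation of cytosine in CpG pairs is copied at each round of DNA replication. Uhrf1 recognizes the new, hemimethylated DNA and brings Dnmt1 to it, so that maintenance is tied to S phase, while Dnmt3a and Dnmt3b can methylate sites that carried no mark. Removal runs through oxidation by the Tet enzymes, followed by base excision with Tdg or by dilution as cells divide. In the intestine Dnmt1 is known from the dividing cells of the crypt.

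Library totals ran from 4122122 counts on genes (EEC 1) to 22462518 (Stem 2). A normalized count is a count divided by the library size and its TMM factor, brought to the scale of the mean library. Each gate's defining genes were looked at through fixed marker lists, given as summed normalized counts. The 5 stem markers summed to 21735 to 27297 in Stem and to no more than 11569 elsewhere, the 7 tuft markers to 27495 to 73731 in tuft cells and no more than 9134 elsewhere, and the 6 enteroendocrine markers to 632626 to 1819010 in EEC and no more than 28782 elsewhere. Genes of goblet cells were not particular to SecPDG, since their 9 markers summed to 862531 to 1277440 in tuft cells beside 887294 to 3490730 in SecPDG. The 6 absorptive markers summed to 52552 to 76662 in enterocytes and to 22391 to 143103 in EEC. The 10 immune markers summed to 1524 to 3690 in tuft cells, 606 to 2504 in EEC and 483 to 1253 in enterocytes, against 196 to 236 in Stem. In tuft cells 1012 to 3173 of these were counts of Ptprc, the gene of Cd45, which the gates removed, and Ptprc was the 1 of the 10 called there against Stem. The share of counts that a member would receive from reads spread evenly over the genome was estimated from 1510 genes of olfactory, vomeronasal, trace amine receptor and keratin-associated families. It is called the background here and, for the 8 members tested below, is given beside a level where it is 20% of it or more. It was highest in EEC 1, with 12.3 counts per kilobase of exon, and lowest in AbsPro 2, with 0.0951.

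A gene was called between 2 cell types at an adjusted p under 0.01 by edgeR's quasi-likelihood F test over 22781 genes, with a mean of at least 50 normalized counts. Of the 9 members, 8 passed the filter on low counts and were tested, and Tdg did not. In enterocytes against Stem, 2 of 8 members were called, both lower, where 13.7% of all genes tested were called. In EEC against Stem, 3 of 8 were called, 2 lower and 1 higher, beside 14.2% of all genes. In tuft cells against Stem, 2 of 8 were called, both lower, beside 6.53%. In AbsPro against Stem edgeR called 0 of 8 members, beside 0.364% of all genes, with 1 member at an unadjusted p under 0.05 and 1 called by DESeq2. In SecPDG against Stem edgeR called 0 of 8, beside 3.11%, with 0 at an unadjusted p under 0.05 and 0 by DESeq2. Along the lineages, 2 of 8 were called in enterocytes against AbsPro, beside 5.13%, and 4 of 8 in EEC against SecPDG, 2 lower and 2 higher, beside 15.1%. Between tuft cells and SecPDG edgeR called 0 of 8, beside 0.9%, with 3 members at an unadjusted p under 0.05 and 1 called by DESeq2. Between AbsPro and SecPDG it called 0 of 8, beside 2.22%, with 0 at an unadjusted p under 0.05 and 0 by DESeq2. In a single test over the 6 cell types, 4 of 8 members were called (Dnmt1, Uhrf1, Dnmt3a and Tet1), beside 25.7% of all genes. Within these 9 comparisons the calls therefore fell on the maintenance pair, with Dnmt3a and Tet1 added where EEC were compared. Tet1 was not called in EEC alone. Outside the 9 it also passed in enterocytes against SecPDG (log2 fold change 2.03 ± 0.57, edgeR adjusted p = 0.00743), beside 14.8% of all genes.

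**Figure D1:**
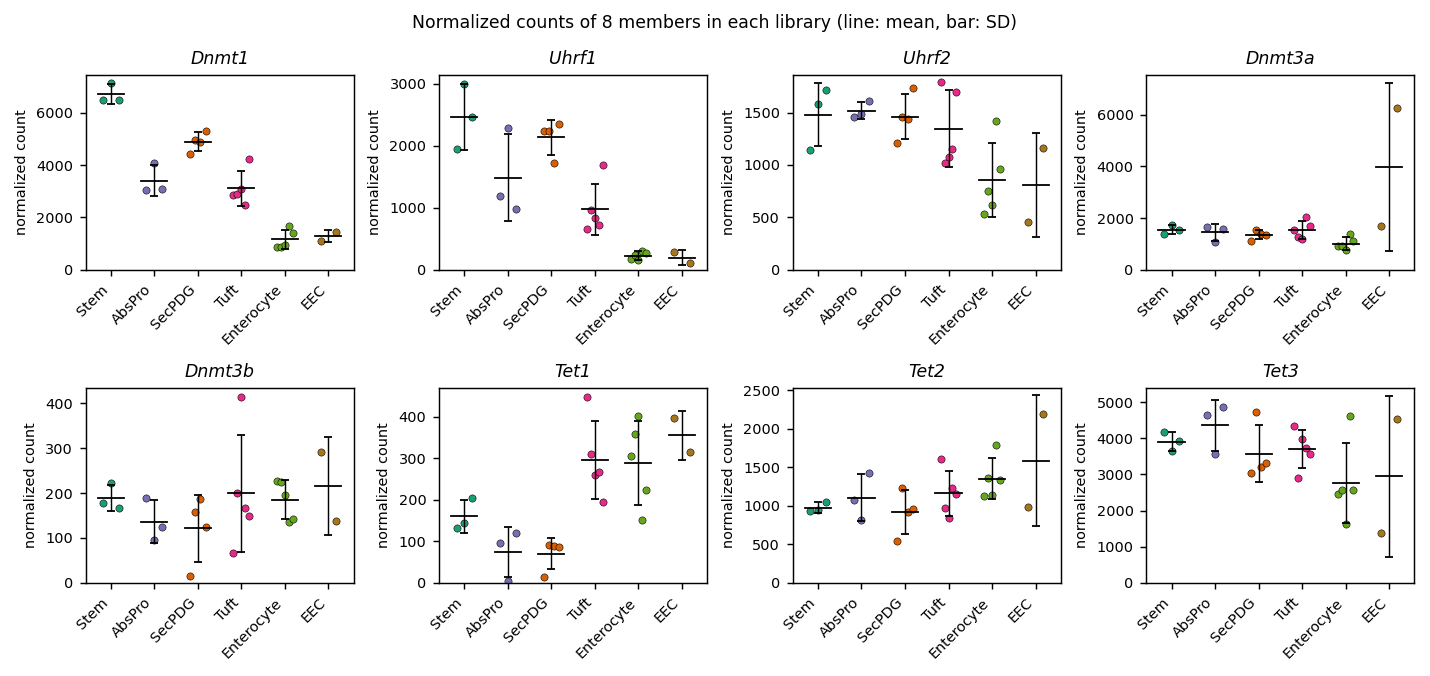
Normalized counts (vertical axis of each panel, from 0) of the 8 tested members in the 22 libraries, grouped by cell type; each point is a library, the line is the mean and the bar the SD. Dnmt1 and Uhrf1 step down from Stem to enterocytes and EEC, while Dnmt3a stands out in 1 EEC library at 6280.

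The levels by library show the pattern first as counts. In the panels of Dnmt1 and Uhrf1 the enterocytes and EEC lie below every library of the other 4 cell types.

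Dnmt1, the maintenance methyltransferase (chromosome 9, 20907209 to 20959888 on GRCm38, minus strand), was most abundant in Stem. Its 3 Stem libraries held 6487, 7144 and 6474 normalized counts. The AbsPro libraries held 3058, 4092 and 3070, and the SecPDG libraries 4407, 4968, 4889 and 5290. Both progenitor gates lay below Stem with no overlap, and AbsPro lay below SecPDG with no overlap. The 5 tuft libraries held 2856, 2908, 3080, 2466 and 4240. The 5 enterocyte libraries held 869, 881, 934, 1686 and 1396, and the 2 EEC libraries 1112 and 1454. No tuft library reached the lowest Stem library, and enterocytes and EEC lay below every library of the other 4 cell types. In bulk libraries fewer cells of a type and less RNA per cell cannot be told apart, and this holds for every level given here.

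Against Stem, Dnmt1 was 5.81-fold lower in enterocytes (log2 fold change −2.54 ± 0.29, SE; edgeR adjusted p = 1.61e-07) and 5.22-fold lower in EEC (−2.38 ± 0.41; adjusted p = 6.48e-05). It was 2.15-fold lower in tuft cells (−1.11 ± 0.29; adjusted p = 0.00824). The tuft call was lost, with the log2 fold change between −1.13 and −1.06, when Stem 1, Stem 2, SecPDG 3, SecPDG 4, Tuft 1, Tuft 2, Tuft 3 or Enterocyte 2 was left out. In AbsPro the log2 fold change was −0.98 ± 0.34 with an adjusted p of 0.219 by edgeR, and it passed the threshold with DESeq2's size factors (adjusted p = 0.00806), with library totals (0.00594) and with DESeq2's Wald test (4.89e-06), within a range of 4.89e-06 to 0.425 over 34 alternatives. In SecPDG it was −0.46 ± 0.31 (adjusted p = 0.417). From AbsPro to enterocytes Dnmt1 fell by 1.56 on the log2 scale (SE 0.29, adjusted p = 0.000667), and without AbsPro 2 this missed the threshold (−1.41, adjusted p = 0.0111). From SecPDG to EEC it fell by 1.93 (SE 0.39, adjusted p = 0.00043). Fitted on the 2 cell types alone, both EEC calls of Dnmt1 were lost (−2.09, edgeR adjusted p = 0.0186, against Stem and −1.41, adjusted p = 0.0102, against SecPDG). In the order of the means, which runs Stem, SecPDG, AbsPro, tuft, EEC, enterocytes, no pair of neighbours was called. The comparison of EEC with tuft cells, the steepest of these steps, gave an adjusted p of 0.0204.

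Uhrf1, which reads hemimethylated DNA and recruits Dnmt1 (chromosome 17, 56303321 to 56323486, plus strand), followed the same order down to tuft cells. The Stem libraries held 1938, 3000 and 2466 normalized counts. The AbsPro libraries held 1195, 2279 and 979, and the SecPDG libraries 2233, 2235, 1719 and 2348. Here the progenitor gates overlapped Stem. The tuft libraries held 660, 964, 836, 712 and 1688. The enterocyte libraries held 165, 234, 159, 305 and 277, and the EEC libraries 285 and 105. Every library of tuft cells lay under Stem, and every library of enterocytes and EEC lay under tuft cells. The background came to 6.1% to 33.3% of the Uhrf1 counts in single enterocyte libraries and to 30.3% in EEC 1.

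Uhrf1 was 10.8-fold lower in enterocytes than in Stem (log2 fold change −3.44 ± 0.35; edgeR adjusted p = 3.33e-08) and 12.7-fold lower in EEC (−3.67 ± 0.52; adjusted p = 3.25e-06). In tuft cells it was 2.54-fold lower (−1.34 ± 0.34; adjusted p = 0.00609). The tuft call was lost with DESeq2's size factors (adjusted p = 0.0116), with the background subtracted (0.0245), and without Stem 1, Stem 2, Stem 3, Tuft 1, Tuft 2, Tuft 3 or Tuft 4, with log2 fold changes of −1.49 to −1.15 and a range of 0.000392 to 0.0331 over the 34 alternatives. In AbsPro it was −0.73 ± 0.39 (adjusted p = 0.421) and in SecPDG −0.21 ± 0.36 (adjusted p = 0.814). From AbsPro to enterocytes Uhrf1 fell by 2.70 on the log2 scale (SE 0.35). From SecPDG to EEC it fell by 3.46 (SE 0.50), with log2 fold changes of −4.55 without EEC 1 and −2.91 without EEC 2. Fitted on the 2 cell types alone, neither EEC call of Uhrf1 was kept (−3.19, edgeR adjusted p = 0.0309, against Stem and −2.75, adjusted p = 0.0159, against SecPDG). Among neighbours in its order, Stem, SecPDG, AbsPro, tuft, enterocytes, EEC, the step from tuft cells to enterocytes was called (adjusted p = 9.79e-06; 6.31% of all genes were called there) and the others were not. Part of the Uhrf1 transcript has copies elsewhere: 18.9% of its 50-base windows also occur in transcripts of other genes, most of them in Gm5648. Of its 100-base windows 7.05% do, and reads there may have been dropped as not unique.

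The promoters of both genes are shown because they share letters that few promoters hold. The words TTTCCCGC, TTTGGCGC, TTTCGCGC and TTTGCCGC, forms of the binding site of E2F factors, which switch on genes of DNA synthesis, were searched on both strands of RefSeq promoter windows of 300 bases on GRCm38.p6, from 250 before to 50 after a start. One of them stood in 2.265% of 32851 windows, or in 2.6% of 27025 genes. Among the 9 members, Dnmt1 and Uhrf1 held a match, and the windows of the other 7 held none. Capitals mark the matches.
Dnmt1, chr9:20952824-20952853, minus strand: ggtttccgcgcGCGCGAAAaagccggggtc
Dnmt1, chr9:20952574-20952601, minus strand: gcggggcagcgTTTGGCGCgggctgtgc
Uhrf1, chr17:56304117-56304146, plus strand: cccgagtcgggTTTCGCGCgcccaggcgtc
The Dnmt1 matches begin at −219 (on the other strand, as GCGCGAAA) and at 33 from the start of 1 of its 3 windows, and the Uhrf1 match begins at −185 from the start of the second of its 2 windows. Each of these windows held 33 CpG pairs, more than 91.4% of all windows, whose median was 7. Windows without a match could hold more, with 57 CpG pairs for Tet2 and up to 47 for Dnmt3a. The letters stood in 5 of 10 S phase genes with a window, in 3 of 5 maintenance partners and in 1 of 8 mitosis genes. They stood in 0 of 10 genes of base excision repair and 0 of 10 of methyl donor and 2-oxoglutarate supply. Among readers of methyl-CpG it was 0 of 7, and among partners of de novo methylation and CpG islands 0 of 4. A match is a description of these letters and was not tested as a bound site.

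Uhrf2, which shares 56.4% of aligned residues with Uhrf1, did not share its levels. Its Stem libraries held 1147, 1581 and 1717 normalized counts, its AbsPro libraries 1460, 1483 and 1613, and its SecPDG libraries 1215, 1461, 1440 and 1736. The tuft libraries held 1790, 1015, 1072, 1151 and 1695. These 4 cell types overlapped throughout. The enterocyte libraries held 535, 754, 616, 1417 and 963, and the EEC libraries 457 and 1158, so that the lower values stood in the mature absorptive and enteroendocrine gates. Against Stem the log2 fold change was −0.79 ± 0.32 in enterocytes (edgeR adjusted p = 0.0403) and −0.87 ± 0.42 in EEC (0.0859), neither past the threshold. The enterocyte value did pass it without AbsPro 1, AbsPro 3, Tuft 4, Enterocyte 4 or EEC 1, where the log2 fold change ran from −1.05 to −0.98. The EEC value was −1.70 and passed without EEC 2 (adjusted p = 0.00543), and was −0.52 without EEC 1, with adjusted p of 0.00543 to 0.641 over the 34 alternatives. EEC against SecPDG likewise gave −1.68 without EEC 2 (adjusted p = 0.00553) and −0.54 without EEC 1, with adjusted p of 0.00553 to 0.626. From AbsPro to enterocytes it was −0.83 ± 0.32 (adjusted p = 0.0414). No neighbours in its order of means were called.

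Dnmt3a, a methyltransferase of unmarked sites (chromosome 12, 3806007 to 3914443, plus strand), kept a narrow range outside EEC. The Stem libraries held 1368, 1722 and 1542 normalized counts, the AbsPro libraries 1659, 1078 and 1592, and the SecPDG libraries 1112, 1537, 1397 and 1359. The tuft libraries held 1527, 1276, 1173, 2041 and 1689. These 4 cell types overlapped. The enterocyte libraries held 906, 907, 746, 1399 and 1097, and the EEC libraries 1679 and 6280. EEC 2 lay above every other library, while EEC 1 lay within the range of Stem. EEC 2 was also the deeper of the 2 (13132315 against 4122122 counts on genes), with a background of 0.7% of its Dnmt3a counts against 13.9% in EEC 1. The 6 stromal markers summed to 3334 normalized counts in EEC 1, 2380 in EEC 2 and 1560 or less elsewhere. Sums of other marker lists also differed between the 2 EEC libraries. They ran from 22391 to 143103 for the absorptive, 632626 to 1819010 for the enteroendocrine and 606 to 2504 for the immune markers. The part of these markers in the Dnmt3a level was not tested.

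In the fit, Dnmt3a was 2.58-fold higher in EEC than in Stem (log2 fold change 1.37 ± 0.40; edgeR adjusted p = 0.00838) and 2.95-fold higher than in SecPDG (1.56 ± 0.37; adjusted p = 0.00207). Both calls rested on EEC 2. Without it the values were 0.12 (adjusted p = 0.85) and 0.31 (adjusted p = 0.502), and over the 34 alternatives the adjusted p against Stem ran from 2.15e-12 to 0.85. The call against Stem was also lost without Stem 1, Stem 2, Stem 3, SecPDG 2, SecPDG 3, SecPDG 4, Tuft 2, Enterocyte 2 or Enterocyte 5, with log2 fold changes of 1.19 to 1.37, and with the 2 cell types alone (1.51, adjusted p = 0.0584). In enterocytes against Stem the log2 fold change was −0.61 ± 0.32 (adjusted p = 0.11), and it was −0.80 and past the threshold without EEC 1 (adjusted p = 0.00142). In AbsPro, SecPDG and tuft cells it lay between −0.19 and −0.0024, with standard errors of 0.32 to 0.36. Among neighbours in its order, EEC, Stem, tuft, AbsPro, SecPDG, enterocytes, the step from EEC to Stem was the called one.

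Dnmt3b, the second methyltransferase of unmarked sites, shares 53.4% of aligned residues with Dnmt3a and was scarce throughout. The Stem libraries held 179, 222 and 167 normalized counts, the AbsPro libraries 189, 95.4 and 125, and the SecPDG libraries 16.0, 158, 187 and 125. The tuft libraries held 65.8, 200.03, 414, 166 and 149, the enterocyte libraries 227, 225, 195, 136 and 142, and the EEC libraries 292 and 138. All 6 cell types overlapped, and no comparison was called (lowest edgeR adjusted p among the 9 comparisons 0.315). The background was 16.2% to 31.9% of its counts in enterocytes, 28.8% in Tuft 1 and 34.8% in EEC 1. Of its 50-base windows, 13.6% also occur in Dnmt3c, the germline methyltransferase that arose from a copy of Dnmt3b. Of its 100-base windows 6.68% do.

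On the scale of normalized counts per kilobase of exon, which allows levels to be compared between genes, Stem held 1067 ± 60.98 of Dnmt1 (SD, n = 3), 673 ± 145 of Uhrf1 and 419 ± 84.1 of Uhrf2. Tet3 stood at 358 ± 24.3 and Dnmt3a at 156 ± 17.9. The order in Stem was thus led by the maintenance pair. In enterocytes Tet3 (253 ± 101, n = 5) and Uhrf2 (242 ± 99.7) lay above Dnmt1 (184 ± 58.8), and Uhrf1 (62.2 ± 17.8) lay below Tet2 (147 ± 29.1) and Dnmt3a (102 ± 25.3). Dnmt3b and Tet1 were the least abundant of the 8 in Stem, with 43.7 ± 6.7 and 11.2 ± 2.7.

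Tet1, the Tet gene with the lowest level per kilobase (chromosome 10, 62804570 to 62908996, minus strand), was lowest in the progenitor gates. The Stem libraries held 132, 145 and 205 normalized counts, the AbsPro libraries 96.3, 5.16 and 121, and the SecPDG libraries 14.0, 92.0, 89.9 and 86.9. Both progenitor gates lay under Stem without overlap. The tuft libraries held 448, 309, 259, 267 and 194, the enterocyte libraries 306, 358, 403, 151 and 224, and the EEC libraries 397 and 314. Tuft cells and EEC lay above SecPDG without overlap. The background was large beside these levels, at 10.3% to 40.4% of the counts in tuft cells, 48.8% to 70.5% in enterocytes, 20.3% in EEC 2 and 85.1% in EEC 1, against 3.3% to 6.9% in Stem. In the progenitor gates it was 7.9% to 22.8% in AbsPro, with the highest share in AbsPro 2, and 6.1% to 44.96% in SecPDG, where SecPDG 1 had 44.96% and SecPDG 2 22.6%.

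Tet1 was 5.03-fold higher in EEC than in SecPDG in the fit (log2 fold change 2.33 ± 0.67; edgeR adjusted p = 0.00805). With the background subtracted the log2 fold change was 1.49 and was not called (adjusted p = 0.166), and without EEC 1 it was 1.99 (adjusted p = 0.0608), in a range of 0.000162 to 0.166 over the 34 alternatives. It was also lost without Stem 3, each of the 4 SecPDG libraries, Tuft 2, Tuft 4, Enterocyte 1, Enterocyte 2 or Enterocyte 3, with values of 1.99 to 2.47, and with the 2 cell types alone (2.99, adjusted p = 0.0362). Tuft cells against SecPDG gave 2.06 ± 0.57 (adjusted p = 0.0378), and enterocytes against AbsPro gave 1.96 ± 0.63 (adjusted p = 0.0214). DESeq2's Wald test called both (adjusted p = 0.00153 and 0.000202), the lowest values of the 34 alternatives. Most alternatives called neither. The tuft difference was called under 6 and missed under 28, with adjusted p up to 0.142. The enterocyte difference was called under 4 and missed under 30, with adjusted p up to 0.139. Against Stem no difference of Tet1 was called, although EEC lay above Stem without overlap.

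Tet2 and Tet3 were not called in any of the 9 comparisons. Tet2 was 931, 946 and 1052 normalized counts in Stem, 1079, 816 and 1420 in AbsPro, and 539, 1232, 923 and 958 in SecPDG. It was 1612, 973, 844, 1226 and 1157 in tuft cells, 1127, 1366, 1145, 1791 and 1332 in enterocytes, and 984 and 2185 in EEC, where the background was 22.01% of the count of EEC 1. Every enterocyte library lay above Stem, and the other gates overlapped it. The log2 fold change against Stem was 0.47 ± 0.31 in enterocytes (edgeR adjusted p = 0.21) and 0.70 ± 0.38 in EEC (0.134). Tet2 depended on the scaling: with DESeq2's size factors the values were 1.02 (adjusted p = 0.00111) and 1.33 (0.000431), and with library totals 0.94 (0.00219) and 1.03 (0.00338), all past the threshold. The range of the adjusted p over the 34 alternatives was 2.06e-05 to 0.449 in enterocytes and 1.13e-05 to 1 in EEC.

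Tet3, the Tet gene with the highest level per kilobase in Stem, was 4169, 3640 and 3918 normalized counts in Stem, 4640, 3555 and 4876 in AbsPro, and 3049, 4734, 3212 and 3317 in SecPDG. It was 4348, 2900, 3971, 3731 and 3568 in tuft cells, 2465, 2559, 1619, 4609 and 2562 in enterocytes, and 1368 and 4518 in EEC. Enterocyte 4 and EEC 2 lay above the 3 Stem libraries, and the other libraries of these 2 gates lay below them. None of the 9 comparisons of Tet3 was called (log2 fold change −0.50 ± 0.34 in enterocytes, edgeR adjusted p = 0.216, and −0.41 ± 0.43 in EEC, adjusted p = 0.458). The enterocyte difference was called without EEC 1 (−0.70, adjusted p = 0.00774) and the EEC difference without EEC 2 (−1.52, adjusted p = 0.00943). The sign in EEC turned under 1 or more alternatives, whose values ran from −1.52 to 0.25. The 3 Tet proteins share 34.1% to 40.5% of aligned residues. Among neighbours in the orders of Tet1, Tet2 and Tet3 no step was called. The pairs of neighbours of all members that are not among the 9 comparisons came from EEC against enterocytes (2.89% of all genes called), EEC against tuft cells (5.31%), enterocytes against SecPDG (14.8%) and tuft cells against AbsPro (3.98%).

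**Figure D2:**
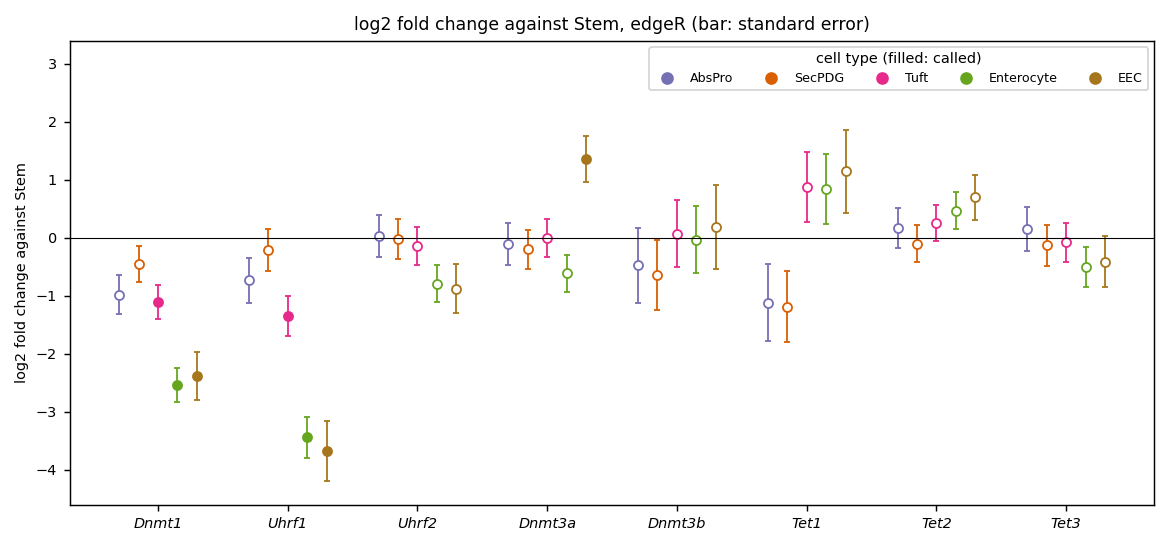
Log2 fold change against Stem (vertical axis) of the 8 tested members (horizontal axis) in the other 5 cell types, from edgeR's fit of all 22 libraries; bars are standard errors and filled points are called. The filled points are Dnmt1 and Uhrf1 in tuft cells, enterocytes and EEC, and Dnmt3a in EEC at 1.37.

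In the plot of fold changes the open points of Uhrf2, Dnmt3a and Tet3 for enterocytes lie below 0 and those of Tet2 above it. The median log2 fold change of all genes was −0.28 in enterocytes, −0.31 in EEC and −0.08 in tuft cells against Stem. With DESeq2's size factors these medians were 0.36, 0.52 and 0.21, and with library totals 0.26, 0.22 and 0.07. The median of the 8 members was −0.56 in enterocytes and −0.11 in EEC. Dnmt1 and Uhrf1 stayed lower than Stem in both cell types under all 34 alternatives, with −2.78 to −2.02 and −3.68 to −2.91 in enterocytes and −2.59 to −1.65 and −4.72 to −2.69 in EEC.

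Ratios of counts within a library do not depend on how libraries are scaled to each other. Counts of Uhrf1 per count of Dnmt1 were 0.367 ± 0.0618 in Stem (SD, n = 3) and 0.201 ± 0.0376 in enterocytes (n = 5). The 5 enterocyte libraries, at 0.170 to 0.265, lay below the 3 Stem libraries, at 0.299 to 0.420. Uhrf1 was thus lower relative to Dnmt1 in enterocytes, by 0.87 on the log2 scale (two-sided exact permutation test, p = 0.0357, which is the smallest p that 3 against 5 libraries allow). Counts of Dnmt3a per count of Dnmt1 were 0.23 ± 0.0167 in Stem, 0.516 ± 0.184 in tuft cells, 0.897 ± 0.128 in enterocytes and 2.91 ± 1.99 in EEC. Counts of Tet2 and Tet3 together per count of Dnmt1 were 0.732 ± 0.0785 in Stem, 1.62 ± 0.422 in tuft cells, 3.63 ± 0.727 in enterocytes and 3.36 ± 1.76 in EEC. For both ratios all 5 other cell types lay above Stem without overlap. The exact permutation p was 0.0357 in tuft cells and in enterocytes, 0.0571 in SecPDG and 0.1 in AbsPro, each the smallest that its number of libraries allows. Both ratios divide by Dnmt1, whose level itself lay below Stem without overlap in all 5 cell types. They therefore carry the fall of Dnmt1 and do not by themselves show a rise of Dnmt3a, Tet2 or Tet3. Dnmt3a per count of Dnmt1 was 0.263 to 0.543 in AbsPro and 0.252 to 0.309 in SecPDG, against 0.211 to 0.241 in Stem. Tet2 and Tet3 per count of Dnmt1 were 1.07 to 2.05 in AbsPro and 0.808 to 1.20 in SecPDG, against 0.642 to 0.786 in Stem. Adjusted over the 25 ratio comparisons made, the lowest p was 0.128, so that no ratio passed after adjustment. The difference of 3 against 2 libraries in EEC cannot reach a p under 0.2.

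**Figure D3:**
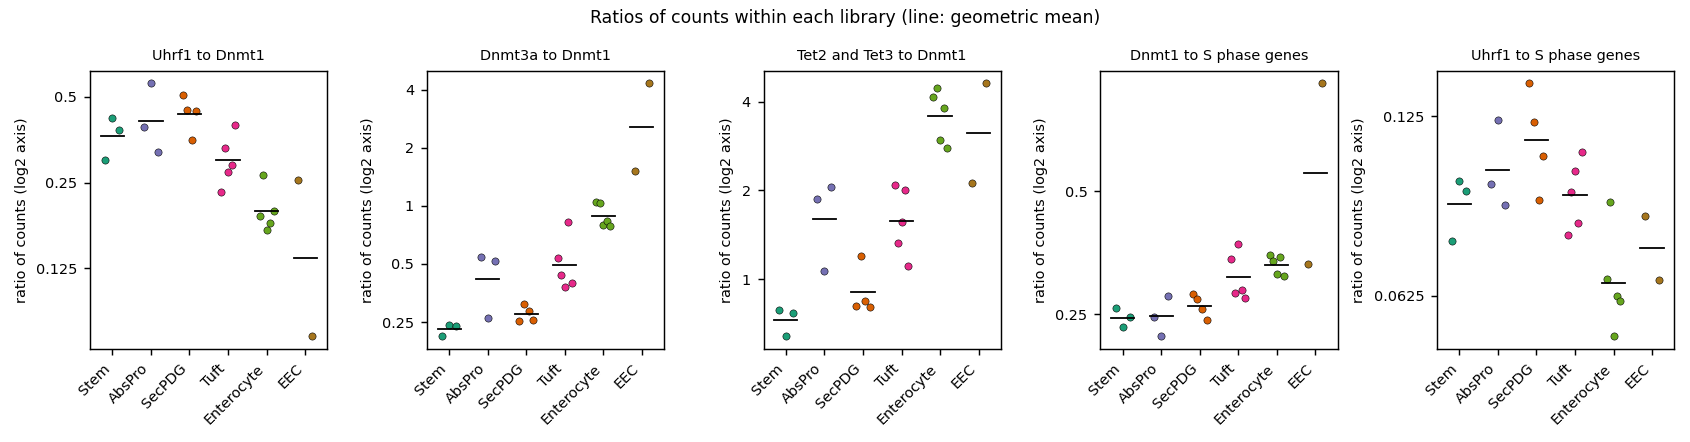
Ratios of counts within each library (vertical axes, log2 scale) by cell type; points are libraries and lines geometric means. From Stem to enterocytes the arithmetic mean of the Uhrf1 to Dnmt1 ratio goes down from 0.367 to 0.201 and that of the ratio of Tet2 and Tet3 to Dnmt1 up from 0.732 to 3.63.

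The panels of ratios also set Dnmt1 and Uhrf1 against the summed counts of 13 S phase genes (Mcm2 to Mcm7, Gins1, Gins2, Pola1, Prim1, Rrm1, Rrm2 and Tyms), which copy DNA or supply its building blocks. Dnmt1 per S phase count was 0.246 ± 0.0131 in Stem and 0.331 ± 0.0183 in enterocytes, where all 5 libraries lay above Stem (0.309 to 0.350 against 0.232 to 0.259; exact permutation p = 0.0357, adjusted p = 0.128). It was 0.311 ± 0.0436 in tuft cells, again above Stem in all 5 libraries (exact permutation p = 0.0357). In EEC 1 it was 0.333 and in EEC 2 0.917. Dnmt1 thus fell less than the S phase genes as a group in enterocytes, by 0.43 on the log2 scale, and by 0.57 with the background subtracted. Uhrf1 per S phase count was 0.0895 ± 0.0108 in Stem and 0.0667 ± 0.0138 in enterocytes, which overlapped (exact permutation p = 0.0714). In AbsPro and SecPDG both ratios overlapped those of Stem.

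**Figure D4:**
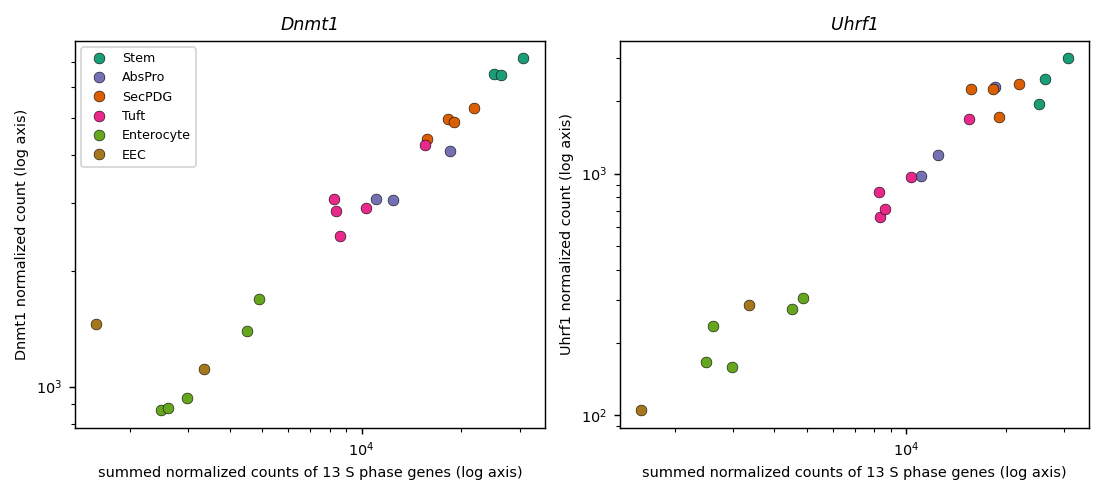
Normalized counts of Dnmt1 and Uhrf1 (vertical log axes) against the summed normalized counts of 13 S phase genes (horizontal log axis) in each of the 22 libraries, coloured by cell type. Stem libraries stand at the upper right, with S phase sums of 25093 to 30755, and enterocytes and EEC at the lower left, with 1585 to 4893; EEC 2 has the highest Dnmt1 level per S phase count of the 22 libraries, 0.917.

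The plot against S phase genes shows the 6 cell types in 1 band from mature cells to Stem, apart from EEC 2 in the panel of Dnmt1. There EEC 2 stood at 0.917 Dnmt1 counts per S phase count, while Tuft 3, the next highest library, stood at 0.372. Over the 22 libraries, the gene most like Dnmt1 by Pearson's r of log2 CPM among 13380 genes was Mcm6 (r = 0.981), a subunit of the replicative helicase, followed by the nucleolar genes Mybbp1a (0.980) and Tcof1 (0.979). The genes most like Uhrf1 were Mcm2 (0.981), Mcm6 (0.974) and the flap endonuclease gene Fen1 (0.972). Dnmt1 and Uhrf1 had an r of 0.951 with each other. These values describe libraries that share cell types and depth, and no p is given. The genes most like Dnmt3a were Hdac6, Mtss1 and Mast3, with r of 0.911 to 0.897, and EEC 2 is the highest Dnmt3a library among the 22. For Uhrf2 they were Lsm14a, Bcor and Zzz3, and for Tet3 they were Nsd1, Wasf2 and Ep300. For Tet2 they were Recql5, D5Ertd579e and Krit1. Those of Dnmt3b (Frmd6, Dgkg, Slc15a2) and Tet1 (Susd1, Col7a1, Tchh) rest on lower counts.

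The genes that work beside the members were counted by lists. Of 6 partners of maintenance, 0 were called in AbsPro, 1 lower in SecPDG, 2 lower in tuft cells and 5 lower in both enterocytes and EEC, with list medians of −2.71 and −3.30 in the last 2. Cdca7, which helps the helicase Hells open chromatin for methylation, was lower in 4 of the 5 cell types, at −1.52 ± 0.35 in SecPDG (edgeR adjusted p = 0.00471), −2.22 ± 0.33 in tuft cells, −3.07 ± 0.34 in enterocytes and −4.36 ± 0.52 in EEC. Lig1, which seals Okazaki fragments, was −2.69 ± 0.31 in enterocytes, while Usp7, a deubiquitinase that acts on Uhrf1 and Dnmt1, was −0.99 ± 0.38 and was not called (adjusted p = 0.0326). Of the 13 S phase genes 0 were called in AbsPro and in SecPDG, 7 lower in tuft cells, 12 lower in enterocytes and 13 lower in EEC, with medians of −0.98, −0.60, −1.21, −2.82 and −3.55. Mcm6 was −3.39 ± 0.35 and Mcm3 −3.18 ± 0.39 in enterocytes. Of 10 mitosis genes, 0 were called in AbsPro, 1 higher in SecPDG, 2 lower in tuft cells and 10 lower in both enterocytes and EEC. Mki67 was −2.23 ± 0.43 in enterocytes and −4.49 ± 0.67 in EEC, and Top2a −3.14 ± 0.37 and −5.16 ± 0.59. The fall of the maintenance pair thus stood beside that of the cell cycle lists, with all-gene medians between −0.31 and 0.04.

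Of 12 genes that supply the methyl donor or 2-oxoglutarate, the cosubstrate of Tet enzymes, 0 were called in AbsPro and SecPDG, 4 lower in tuft cells, 6 lower in enterocytes and 4 lower in EEC, with medians of −0.57, −1.23 and −1.06 in these 3. Idh1, a cytosolic isocitrate dehydrogenase that makes 2-oxoglutarate, was −1.86 ± 0.34 in tuft cells, −2.23 ± 0.34 in enterocytes and −2.78 ± 0.49 in EEC. Ahcyl1, a relative of the enzyme that clears S-adenosylhomocysteine, was −1.02 ± 0.34 in enterocytes (adjusted p = 0.0155) and 0.09 ± 0.43 in EEC. The genes called lower in all 3 of these gates were Ahcy, Idh1, Shmt1 and Shmt2, named after their values were seen. Of 12 genes of base excision repair, 0 were called in AbsPro, SecPDG and tuft cells and 4 lower in enterocytes and in EEC, among them Parp1 at −1.99 ± 0.30 in enterocytes, while Lig3 was −0.74 ± 0.31 (adjusted p = 0.0453). The share of all genes called was 6.53% in tuft cells, 13.7% in enterocytes and 14.2% in EEC.

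Of 10 readers of methyl-CpG, 0 were called in AbsPro and SecPDG, 1 lower in tuft cells, 2 lower in enterocytes, and 2 lower with 1 higher in EEC. Mbd2, which brings the NuRD repressor complex to methylated DNA, was not called, with −0.18 ± 0.35 in enterocytes and −0.61 ± 0.45 in EEC. Mbd6 was −1.08 ± 0.34 in enterocytes (adjusted p = 0.0122) and 0.67 ± 0.43 in EEC (adjusted p = 0.197). Of 8 partners of de novo methylation and CpG islands, 0 were called in AbsPro, 1 higher in SecPDG and in tuft cells (Cxxc5 in both), 1 lower in enterocytes (Kdm2b) and 2 higher in EEC (Cxxc4 and Cxxc5), all named after their values were seen. Nsd1 and Setd2, histone methyltransferases whose marks guide Dnmt3a and Dnmt3b, were not called in any of the 5 cell types. In enterocytes the list medians were −0.59 for the readers and −0.73 for the de novo partners, beside −0.28 for all genes. The 2 of 10 readers and 1 of 8 de novo partners called there stood beside 13.7% of all genes. The calls of these lists in EEC stood beside 14.2%.

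Tdg was listed at a count of 0 in 17 of 22 libraries. The other 5 were Stem 2 with 31 counts, Tuft 5 and Enterocyte 1 with 2 each, and Stem 3 and SecPDG 2 with 1 each, and no fold is given. Its gene lies at 82629828 to 82650799 on chromosome 10 (plus strand). Of its 50-base windows 66.3% also occur in transcripts of other genes, above all Tdg-ps, Gm9855 and Gm5597, against 0% for Dnmt1, Uhrf2, Dnmt3a, Tet2 and Tet3. Of its 100-base windows, the length of the reads, 46.0% do. How far these copies account for the counts of 0 was not tested. Reads that align to several places are left out of these counts, and 15.5% to 20.7% of the entries of a library were set aside as not unique. Another 10.4% of its exon bases overlap those of Glt8d2 on the minus strand, where unstranded reads are ambiguous. No level of Tdg was read from the count files.

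The choice of polyadenylation site and of exons gave no call among the members. Distal site use was tested with limma for 21 of 22 listed transcript comparisons of 6 members, and 0 were called at an adjusted p under 0.05 (lowest 0.696), with 1 at an unadjusted p under 0.05 (Dnmt1 in AbsPro, 0.0486). Over all transcripts 0% were called in AbsPro, 0.0237% in SecPDG, 0.0614% in tuft cells and 0.0408% in enterocytes. Since this test called almost no transcript of any gene, its 0 calls do not show that site use of the members was unchanged. By DaPars, the study found the most polyadenylation changes between Stem and AbsPro. Tdg is listed there with 2 transcripts, and the first of them had a distal share of 0.22, 0.25 and 0.21 in the 3 Stem libraries. It was 0.29, 0.18 and 0.36 in AbsPro, 0.39, 0.33, 0.24 and 0.32 in SecPDG, 0.14, 0.31, 0.44, 0.36 and 0.30 in tuft cells, and 0.61, 0.35, 0.29, 0.30 and 0.12 in enterocytes. All 4 cell types overlapped Stem in the distal share of both Tdg transcripts, with unadjusted p of 0.0608 (the second transcript in SecPDG) to 0.459 by limma. In the table with EEC no member is listed. Skipped exons were tested with edgeR on inclusion and skipping counts for 28 of 32 listed events of the members, in Uhrf2, Dnmt1, Dnmt3a and Dnmt3b, and 0 were called (lowest adjusted p 0.63, lowest unadjusted p 0.0973). Over all events tested the share called was 0% for each of the 5 cell types against Stem. At an unadjusted p under 0.05 there were 5 of 4293 events for AbsPro, 46 of 5283 for SecPDG and 120 of 5464 for tuft cells. There were 144 of 4756 for enterocytes and 24 of 1891 for EEC. Each is under the share of 0.05 that chance alone would give, so the skipped exon test was conservative. Its 0 calls therefore do not show that exon use of the members was unchanged. With the rMATS test, the study reported its largest number of splicing changes between Stem and AbsPro. At the lowest p, a 60-base exon of Dnmt3b (chr2:153670849-153670908, plus strand, mm10) had 0 inclusion and 79 skipping reads in Stem and 1 of each in enterocytes. A 110-base exon of Uhrf2 (chr19:30073894-30074003, plus strand) had 134 inclusion and 29 skipping reads in Stem, with the skipping reads in 1 of the 3 libraries, and 0 skipping reads in the other 5 cell types.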

How the data were processed

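RNA of 22 libraries was sequenced as paired reads. The deposited counts per gene were made by the authors with STAR 2.5.2a on UCSC mm10 and HTSeq 0.6.1p1 without strand. The 5 entries that name no gene, 53.9% to 91.6% of all entries of a library, were left out of library sizes. The genes described and the partner lists were chosen with earlier results of these data known.

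Counts were fitted with edgeR 4.0.16 in R 4.3.3 (TMM scaling, filterByExpr, all 22 libraries, cell type as the factor), and SE is the log2 fold change divided by the root of F. P-values are Benjamini-Hochberg adjusted over all genes tested. The study used DESeq2; here DESeq2 1.42.0 was an alternative. All members are given by library; of the list genes, those called in 4 or more of the 5 comparisons with Stem in 1 direction and the 2 with the highest mean were named, and for likeness the 3 genes with the highest r. Lists contain 71 genes.

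In the authors' polyadenylation tables (DaPars), distal use is a deposited fraction; 68 further columns of per-sample values in them (coverage) were not used. Fractions were tested with limma 3.58.1 on a logit scale with a pseudocount of 0.01. The authors' other tables (rMATS) hold inclusion and skipping reads, tested with edgeR at a mean of at least 10 reads per library. Libraries in these tables carry no name and were not tied to those of the count files. Columns with the authors' own comparisons (p-values, differences) and the MAJIQ tables were not used. Ratios were tested by exact permutation (scipy 1.17.1). Proteins were compared after translating the reference transcripts. Each test across features was checked on simulated data.

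Same-numbered libraries of different cell types did not deviate together as a set (median correlation 0.00016 over 44 pairs, from −0.396 to 0.503). No pairing by number was seen, though a median over all pairs cannot exclude it for single pairs. No 2 libraries of a cell type agreed within counting noise.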

Additional observations from a re-analysis of the deposited data

Results flagged for a closer look

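Of 24 sets of libraries tested (the 8 tested members in the 3 cell types with 4 or 5 libraries), 2 held a library far from the others, and chance alone gives about 1 in 20. The Tet1 level of SecPDG 1 was 13.9862 normalized counts, while the other 3 SecPDG libraries held 86.9 to 92.0. Its gap was 0.935 of the range of the group, over the critical value of 0.829. The Dnmt3b level of the same library was also low, at 16.0 against 125 to 187. The Tet3 level of SecPDG 2 was 4733.77 normalized counts, above the 3049 to 3317 of the other SecPDG libraries, with a gap of 0.841 of the range. What sets these libraries apart was not tested.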

How the results depend on the processing

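Over 34 alternatives and 72 member values, 2346 of 2448 values kept their direction and side of the threshold, 52 called values missed it, 50 passed it newly, and 0 called values turned their direction. Dnmt1 and Uhrf1 in enterocytes against Stem were called under all 34. Members called in AbsPro against Stem (0) were 1 with DESeq2's size factors, library totals, the 2 cell types alone and DESeq2's Wald test. In tuft cells against Stem (2) they were 1 with DESeq2's size factors and with the background subtracted, and 0 to 2 leaving out each library in turn. In enterocytes against Stem (2) they were 2 to 5 leaving out a library, with 5 without EEC 1. In EEC against Stem (3) they were 0 with the 2 cell types alone and 2 to 4 leaving out a library. In enterocytes against AbsPro (2) they were 4 at an adjusted p under 0.05 and with DESeq2's Wald test, and 1 (without AbsPro 2) to 5 (without EEC 1) leaving out a library. In tuft cells against SecPDG (0) they were 2 at an adjusted p under 0.05, with newer adjusted deviances, with the 2 cell types alone and with thinned counts, 1 with DESeq2's Wald test, and 0 to 1 leaving out a library (1 without AbsPro 2, Tuft 5 or EEC 1). In EEC against SecPDG (4) they were 1 with the 2 cell types alone and 3 to 4 leaving out a library, and over the 6 cell types (4) they were 3 to 5. The cause of these changes was not tested.

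The replicate number, by which no pairing was seen, was also fitted as a block. The members called were then 2 in EEC against Stem and 3 in EEC against SecPDG. Dnmt3a at 1.28 (edgeR adjusted p = 0.0146) and Tet1 at 2.38 (0.0199) were not called, and the other counts were the same.

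The share of called genes that were higher was 42.1% in enterocytes against Stem, and 69.7% with DESeq2's size factors and 63.0% with library totals. In EEC against Stem it was 47.6%, 72.3% and 57.8%, in SecPDG against Stem 77.9%, 74.2% and 54.3%, in enterocytes against AbsPro 38.0%, 69.3% and 63.1%, in AbsPro against SecPDG 45.5%, 39.4% and 58.2%, and in EEC against SecPDG 44.8%, 70.0% and 68.0%. All genes called numbered 709 in SecPDG against Stem and 1205 with DESeq2's size factors, 1488 and 2262 in tuft cells against Stem, and 506 and 926 in AbsPro against SecPDG. Newer deviances, the set without the 3 libraries of most background (Tuft 2, Enterocyte 3 and EEC 1), and the ratios with a library left out or the background subtracted were added after seeing the data. EEC have 2 libraries, the shallower at 4122122 counts, which limits every EEC value.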
